A study of Mus musculus with 8 samples.

Results

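The genes described here are 10 Krüppel-like factor (KLF) genes outside the subgroup that binds the corepressor SIN3: Klf1, Klf2, Klf3, Klf4, Klf5, Klf6, Klf7, Klf8, Klf12 and Klf15. Their peaks were taken from a list of KLF13-bound chromatin in HT22 cells, an immortalised mouse hippocampal neuron line, as every peak whose assigned gene symbol was one of the 10. This gave 10 peaks of 9506 in the list, assigned to 8 of the 10 genes, while the whole list is assigned to 7800 genes. All cells stably made BirA, a bacterial enzyme that attaches biotin, and were transfected with the pTO-Klf13Bio plasmid, from which tagged KLF13 is made and biotinylated. Chromatin was crosslinked and collected 24 h later. The 4 KLF13 ChSP libraries came from precipitation on streptavidin (chromatin streptavidin precipitation, ChSP), and the 4 input libraries came from the same transfected cells with no precipitation. KLF13 was supplied by the plasmid, and the samples include no precipitation from cells lacking the tag, so chromatin caught by the beads alone and chromatin bound by KLF13 cannot be told apart.

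The list holds 1 value per peak over all 8 libraries. Each peak has a p and a value read here as a fold, the linear ratio of ChSP to input, both computed by the authors. The header does not name these columns, and their meaning was taken from their position in the layout that the peak caller writes. With no value per library, read depth and replicate spread are unknown, no fold below carries an error, and differences between folds could not be tested. The p of every peak was at or below 9.99e-06, and peak edges fall on steps of 100 bp. Of the peak numbers up to 9538, 32 are absent, so a gene without a peak here is one without a row in the list used.

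KLF proteins bind DNA through zinc fingers at their C-terminus and recognise GC boxes and CACCC elements, which the Sp factors recognise as well. Outside the zinc fingers they differ, and this is where cofactors attach. Klf1, Klf2, Klf4, Klf5, Klf6 and Klf7 encode mainly activators, Klf3, Klf8 and Klf12 encode repressors that recruit CtBP, and Klf15 is usually placed apart. KLF13 itself belongs to the SIN3-binding subgroup. In neurons, members of the family are known for promoting axon growth (Klf6, Klf7) or restraining it (Klf4).

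Of the 10 genes 7 (70.0%) had a promoter peak, here a peak no more than 1 kb from a transcription start site (TSS): Klf1, Klf2, Klf3, Klf4, Klf5, Klf7 and Klf15. Among all 21900 protein-coding genes the share was 30.9% (6769 genes, exact 95% binomial interval 30.3 to 31.5). That interval treats genes as independent draws and does not cover replicate spread or the choice of settings. Klf12 had a peak classed as distal, and Klf6 and Klf8 had none. With the list limited to the 4753 smallest p, the count was 2 of 10, Klf3 and Klf4, and the share of all genes was 18.6%. With gene starts from RefSeq bounds the count was again 7 of 10, with Klf12 in place of Klf15. The share was then 34.5% of the 19047 genes with a known strand, but the 2853 left out all lacked an assigned peak. That omission can raise the share, so it is not comparable with the 30.9%. Klf5 was itself placed by the strand given with its peak. A peak of any class was found at 8 of 10, against 33.6% of all protein-coding genes. The 10 genes were chosen with earlier results of these data known, so the count is a description.

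The promoters that best show the contrast within the group are those of Klf3 and Klf4, which lay wholly inside a peak, and that of Klf6, with no peak in its surroundings. Each sequence is the RefSeq promoter window on GRCm38.p6, from 250 bases before a start of the gene to 50 after it, read 5′ to 3′ on the strand of the gene. Capitals mark GGGCGG, the core of a GC box, on either strand (CCGCCC where it lies on the other strand).
Klf3, chr5:64803271-64803570, plus strand: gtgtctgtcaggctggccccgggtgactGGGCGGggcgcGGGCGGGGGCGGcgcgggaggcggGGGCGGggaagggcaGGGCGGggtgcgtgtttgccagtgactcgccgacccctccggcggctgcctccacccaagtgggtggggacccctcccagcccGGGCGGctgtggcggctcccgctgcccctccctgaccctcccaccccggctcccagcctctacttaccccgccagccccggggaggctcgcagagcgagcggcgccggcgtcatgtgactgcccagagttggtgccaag
Klf4, chr4:55532426-55532725, minus strand: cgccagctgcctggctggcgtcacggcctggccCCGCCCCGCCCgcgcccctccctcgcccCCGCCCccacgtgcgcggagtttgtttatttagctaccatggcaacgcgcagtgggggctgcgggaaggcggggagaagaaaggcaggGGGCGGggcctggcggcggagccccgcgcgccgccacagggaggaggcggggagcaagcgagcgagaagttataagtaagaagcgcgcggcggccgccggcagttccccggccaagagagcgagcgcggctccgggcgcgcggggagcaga
Klf6, chr13:5861239-5861538, plus strand: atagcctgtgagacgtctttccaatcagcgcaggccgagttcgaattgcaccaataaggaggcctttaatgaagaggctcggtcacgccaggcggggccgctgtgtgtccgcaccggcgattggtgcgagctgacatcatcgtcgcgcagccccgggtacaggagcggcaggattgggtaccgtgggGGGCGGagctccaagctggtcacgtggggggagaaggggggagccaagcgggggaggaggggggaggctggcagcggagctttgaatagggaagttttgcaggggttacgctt

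Windows of a further pair are shown because a peak lay beside them and not over them. The peak assigned to Klf15 began 76 bp after the end of its window, and the peak of Klf2 began 290 bp after.
Klf15, chr6:90462326-90462625, plus strand: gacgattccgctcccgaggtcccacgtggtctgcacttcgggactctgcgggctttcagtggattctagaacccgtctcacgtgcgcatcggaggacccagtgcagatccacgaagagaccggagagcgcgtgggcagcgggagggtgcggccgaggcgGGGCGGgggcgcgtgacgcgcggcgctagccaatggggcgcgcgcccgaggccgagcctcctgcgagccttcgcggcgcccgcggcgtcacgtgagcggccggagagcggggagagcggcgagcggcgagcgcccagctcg
Klf2, chr8:72318812-72319111, plus strand: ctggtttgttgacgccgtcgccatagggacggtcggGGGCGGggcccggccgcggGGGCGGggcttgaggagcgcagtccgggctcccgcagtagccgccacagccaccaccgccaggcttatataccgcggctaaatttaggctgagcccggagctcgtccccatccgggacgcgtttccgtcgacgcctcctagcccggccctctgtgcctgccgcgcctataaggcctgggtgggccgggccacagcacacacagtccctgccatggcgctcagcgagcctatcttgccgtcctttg

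Counted by these letters, the Klf3 window held 6 copies of GGGCGG and the Klf4 window 4, a pair of which share a base. Klf2 held 2 copies, and Klf6, Klf7 and Klf15 held 1 each. Both entries of Klf8 in the table also held 1, and the windows of Klf1 and Klf12 held 0. At least 1 copy was therefore present in 7 of the 9 genes with a window, and Klf5 has no window in the table. Of these 9 genes, only 2, Klf3 and Klf4, had a window that overlapped a peak. The windows of Klf7, Klf8, Klf12 and Klf15 belong to starts inside the RefSeq bounds, so this count depends on the start used. The outer start of Klf7 lay under a peak, from -255 to 244 bp. The windows of Klf7 and Klf1 lay 462 and 870 bp from the nearest peak. The share of windows with GGGCGG was 35.7% over all 32851 in the table and 46.2% over the 21263 of protein-coding genes. It was 82.4% over the 6511 windows that overlapped a peak and 24.1% over those that overlapped none. At least 4 copies, as at Klf3 and Klf4, were present in 21.9% of windows that overlapped a peak and in 5.49% of all windows.

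CACCC elements were counted as CCACCC on both strands. Klf3, Klf7 and each Klf8 entry held 3 copies, Klf1 and Klf2 held 1, and Klf4, Klf6, Klf12 and Klf15 held 0. All windows held it in 31.5% of cases, and those that overlapped a peak in 40.7%. The longer CCACACCC, which is the reverse complement of GGGTGTGG, was present only at Klf12 among the 9 genes, against 3.56% of all windows. GC content was 76.7% at Klf3, 74.3% at Klf4, 73.3% at Klf15, 69.3% at Klf2 and 63.0% at Klf6. It was 57.3% and 60.0% at the Klf8 entries, 58.3% at Klf7, 51.3% at Klf1 and 45.7% at Klf12. The most GGGCGG copies were in the windows of highest GC content, Klf3 and Klf4, while Klf15 held 1. Klf3, of highest GC content, held 3 CCACCC copies and Klf12, of lowest, held 0. Klf7 and each Klf8 entry also held 3, and Klf4 and Klf15 held 0. The median GC content was 68.7% for windows that overlapped a peak and 50% for those that did not. The part of base composition in these counts was not tested.

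Klf4, a factor of pluripotent and epithelial cells, had the highest fold of the group. Its promoter peak (ENSMUSG00000003032; chromosome 4, 55531901 to 55533200) had a fold of 45.2 and a p of 3.54e-29, and it covered the TSS from -725 to 574 bp. This fold was above 94.6% of the 7599 promoter peaks, and its p was smaller than that of 97.7% of them. The window printed above, with its 4 GC box cores, lay inside it over all 300 bases. The table also places an end of an lncRNA gene, Gm12506, at 55532710, under the same peak.

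Klf4 was the sole gene of the 10 with more than 1 assigned peak, and it had 3. One lay at -119 kb from the TSS in intergenic DNA (chromosome 4, 55651201 to 55651800), with a fold of 22.5 and a p of 9.20e-15. It was 12.0 kb beyond the end of Gm12506, so that lncRNA gene, not Klf4, is the nearest gene of any kind in the table. The other lay at 17.5 kb past the TSS (55514801 to 55515000), which is 12.1 kb beyond the 3′ end of the gene. That peak was 200 bp wide with a fold of 10.95 and a p of 8.80e-06, close to the largest p in the list. Among the 698 peaks classed as distal intergenic, with a median fold of 17.2, these folds were above 76.2% and 22.9%. At least 3 assigned peaks were found at 283 (3.84%) of the 7368 protein-coding genes with any peak.

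Klf5, which supports proliferation in the intestinal crypt and in vascular smooth muscle, had the next highest fold of the activator genes. Its peak (ENSMUSG00000005148; chromosome 14, 99298801 to 99299500) had a fold of 31.1, above 76.7% of promoter peaks. The p was 8.77e-11, smaller than that of 35.0% of them, so the fold ranked high and the p did not. The peak lay from 110 to 809 bp past the TSS, inside the gene.

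Klf2, known for its roles in endothelium, lung and quiescent T cells, had a fold of 26.6 (ENSMUSG00000055148; chromosome 8, 72319401 to 72320400) with a p of 6.85e-12. The fold was above 65.6% of promoter peaks. From 339 to 1338 bp past the TSS, the peak lay within the body of a gene that spans 2.59 kb in all, and clear of the GC box cores upstream. No other peak was found within 50 kb of the gene.

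Klf1, the erythroid factor that activates adult β-globin, had a fold of 15.0 (ENSMUSG00000054191; chromosome 8, 84902901 to 84903600) with a p of 7.64e-10. That fold was above 19.0% of promoter peaks. The peak lay inside the gene, 973 to 1672 bp past the TSS the authors used, and so only just met the 1 kb limit for a promoter peak. Within 50 kb of Klf1 there were 3 other peaks, with folds of 31.8 at Syce2, 16.6 at Mast1 and 33.1 at Rtbdn, all higher than the one in Klf1.

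Klf7, a factor of sensory and olfactory neurons that promotes axon outgrowth, had the lowest promoter fold of the 7 genes. It was 10.7 (ENSMUSG00000025959; chromosome 1, 64122101 to 64122600) with a p of 1.72e-07, above 5.32% of promoter peaks. By the authors' annotation the peak lay upstream, from -1174 to -675 bp. The RefSeq bounds of Klf7 start further out, and that start fell under the peak, from -255 to 244 bp. The peak also lay inside the bounds of an lncRNA gene, Gm35880 (64121567 to 64242198).

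Klf6, the broadly expressed relative of Klf7, had no assigned peak. The gene (chromosome 13, 5861489 to 5870393) lies in a stretch of 5.55 Mb without any peak, which holds 25 protein-coding genes with Klf6 among them. On its left the nearest peak was 2.32 Mb away, at Gdi2 with a fold of 27.4, and on its right 3.22 Mb away, at Larp4b with a fold of 27.3. The GC box core at -63 in its window, printed above, thus had no peak over it.

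**Figure D1:**
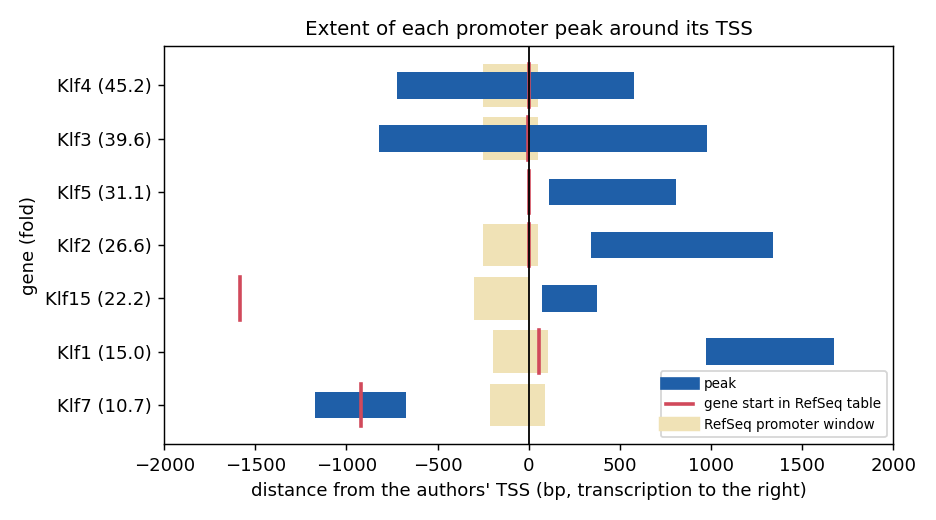
Extent of the 7 promoter peaks (blue bars) in bp from the TSS used by the authors, with transcription running to the right and the fold beside each gene. Red ticks are gene starts in the RefSeq table and yellow bars are the RefSeq promoter windows, which Klf5 lacks in the table. The peaks of Klf3 and Klf4 span the TSS, those of Klf1, Klf2, Klf5 and Klf15 begin 75 to 973 bp past it, and that of Klf7 ends at -675 bp.

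Klf3 was the only CtBP-binding repressor gene with a promoter peak. It encodes a repressor with known roles in adipocytes, B cells and the erythroid lineage. Its peak (ENSMUSG00000029178; chromosome 5, 64802701 to 64804500) had a fold of 39.6 and a p of 1.62e-22, above 90.1% of promoter folds. At 1800 bp it was wider than 98.7% of promoter peaks, and it reached from -822 to 977 bp around the TSS. The 6 GC box cores of its window all lay under it. A protein-coding gene model, Gm38457, overlaps the start of Klf3 in the table, and the authors' annotation assigned the peak to Klf3 alone.

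Klf12, whose protein was named as a repressor of the AP-2α gene, had a single peak classed as distal intergenic. It lay at -135 kb from the TSS used by the authors (ENSMUSG00000072294; chromosome 14, 100284601 to 100285100), with a fold of 18.9 and a p of 1.92e-08. The RefSeq table gives Klf12 a longer span, 99866181 to 100285891 or 419.7 kb, and on those bounds the peak lay 791 to 1290 bp inside the start of the gene. The class of this peak therefore depends on the transcript used. An lncRNA gene, Gm41231, has an end 623 bp from it, and the nearest other protein-coding gene was 912.6 kb away. The promoter window in the table belongs to the inner start and lay 134.6 kb from the peak.

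Klf8, a repressor studied in epithelial cancers, had no assigned peak. The gene spans 173.6 kb of the X chromosome (153225339 to 153398925). Peaks nearest to it were at Ubqln2, 98.9 kb away with a fold of 66.3, and at Usp51, 217.4 kb away with a fold of 18.8. Without a peak within 50 kb of their bounds were Klf6 and Klf8, 2 of the 10 genes, and 39.1% of the 21887 protein-coding genes on chromosomes with peaks.

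Klf15, a glucocorticoid-induced regulator of metabolism in liver and muscle, had a fold of 22.2 (ENSMUSG00000030087; chromosome 6, 90462701 to 90463000). This is close to the median of all promoter peaks, which was also 22.2. The p of 3.10e-07 was smaller than that of 11.2% of promoter peaks, and the width was 300 bp. It lay from 75 to 374 bp past the TSS, next to a window with a GC content of 73.3%. On the RefSeq bounds, which start further upstream, the peak was 1658 bp inside the gene and would fall outside a 1 kb promoter.

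The folds of the 7 promoter peaks thus spread over a range of 4.24 times, from 10.7 to 45.2, with a median of 26.6. Over the 6769 protein-coding genes with a promoter peak, the median of the highest fold was 22.9. Of the 7, 4 were above the promoter median, 3 (Klf3, Klf4 and Klf5) were above the upper quartile of 30.3, and 2 (Klf1 and Klf7) were below the lower quartile of 16.5. A p smaller than the promoter median of 4.18e-13 was found at 2 of the 7, Klf3 and Klf4.

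**Figure D2:**
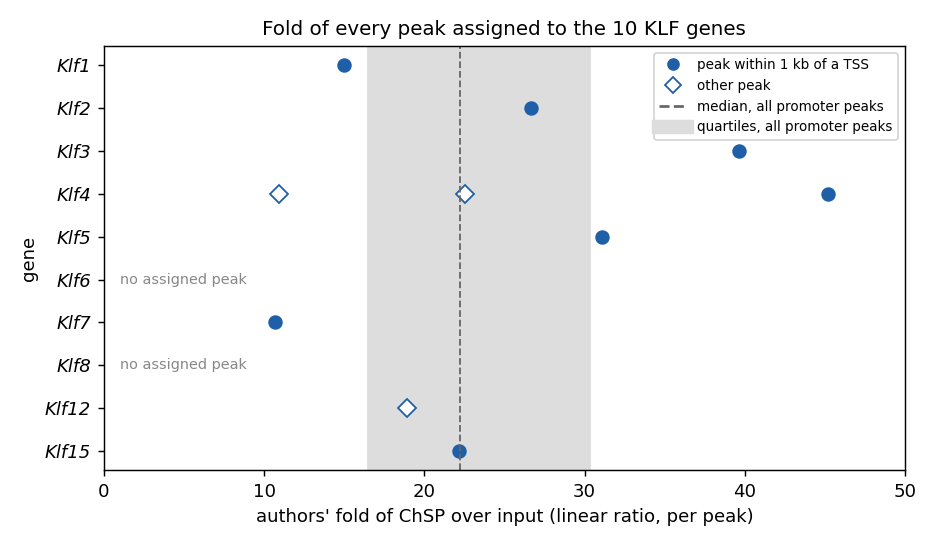
Fold of ChSP over input for each of the 10 peaks, by gene; filled circles are peaks within 1 kb of a TSS and open diamonds are other peaks. The dashed line is the median of all promoter peaks, 22.2, and the grey band runs between their quartiles, 16.5 and 30.3. Klf3, Klf4 and Klf5 lie right of the band, and Klf1 and Klf7 lie left of it.

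Positions relative to the TSS differed as well. Only the peaks of Klf3 and Klf4, 2 of 7, overlapped the TSS used by the authors, against 78.7% of all promoter peaks. With RefSeq gene starts the peak of Klf7 overlapped one too. A further 4, at Klf1, Klf2, Klf5 and Klf15, lay wholly downstream inside the gene. The peaks at Klf3 and Klf4 were also the widest of the 7, at 1800 and 1300 bp, followed by Klf2 with 1000 bp. The median width was 700 bp, the same as over all promoter peaks.

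**Figure D3:**
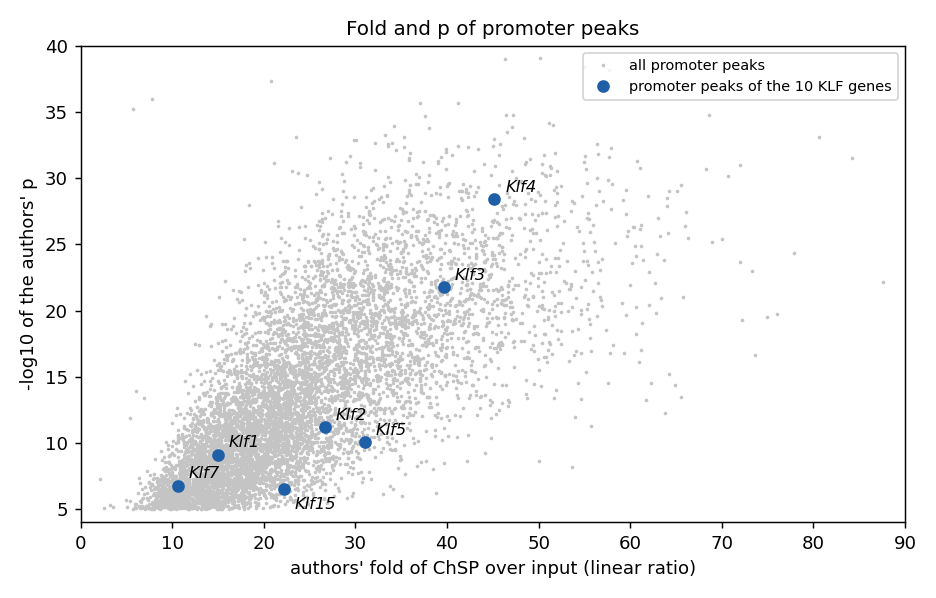
Fold (x axis, linear ratio) against the negative log10 of the authors' p (y axis) for the 7599 promoter peaks in grey and the 7 promoter peaks of the KLF genes in blue; 4 grey peaks lie above the upper limit of the y axis. Klf3 and Klf4 lie high on both measures, and Klf5 and Klf15 have folds of 31.1 and 22.2 with p of 8.77e-11 and 3.10e-07.

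The SIN3-binding KLF genes and the Sp genes are the nearest relatives in the list, and their values are given side by side with no test. Promoter peaks were found at 6 of 6 SIN3-binding genes (Klf9, Klf10, Klf11, Klf13, Klf14 and Klf16) and at 7 of 9 Sp genes, against 7 of the 10 genes here and 30.9% of all protein-coding genes. Each peak is assigned to 1 gene: a peak with a fold of 54.7 inside the bounds of Sp3 is assigned to its antisense gene Sp3os, so Sp3 is not counted. The median of the highest promoter fold was 35.9 in the SIN3-binding genes, 22.4 in the Sp genes and 26.6 here. Without Klf13, whose sequence the plasmid carries, the SIN3-binding median was 38.8. The peak with that fold overlapped a TSS in 5 of 6 SIN3-binding genes, 5 of 7 Sp genes and 2 of 7 genes here. With the list limited to the 4753 smallest p, a promoter peak remained at 5 of 6 SIN3-binding genes and 6 of 9 Sp genes. It remained at 2 of the 10 genes here, and the share of all protein-coding genes was 18.6%. Assigned peaks of any class numbered 9, 14 and 10 in these groups.

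**Figure D4:**
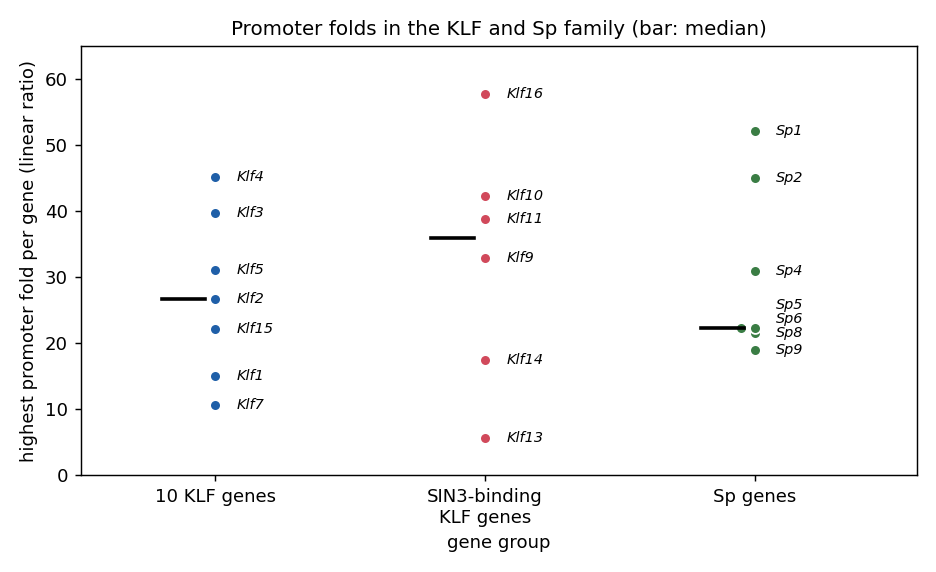
Highest promoter fold per gene (y axis, linear ratio) for the genes with a promoter peak in 3 groups: 7 of the 10 KLF genes described, 6 SIN3-binding KLF genes and 7 Sp genes; each point is a gene and each bar the median of its group. The medians are 26.6, 35.9 and 22.4, and the ranges of the groups overlap.

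Genes whose products act with KLF proteins were also looked up. Their list, like the later ones, was chosen with earlier results of these data known, so the counts are descriptions. In this list of 10 cofactors and regulators, 10 had a promoter peak, against 30.9% of all protein-coding genes. In each the peak with the highest fold covered a TSS, as did 78.7% of all promoter peaks. Ctbp1 and Ctbp2, which encode the corepressors that KLF3, KLF8 and KLF12 recruit, had folds of 45.0 and 33.6. The acetyltransferase genes Kat2b, Crebbp and Ep300 had 44.7, 36.1 and 29.5. Ubiquitin ligase genes followed with 37.6 at Wwp1 and 22.4 at Fbxw7, and Fhl3, a LIM domain partner of KLF3, had 26.0. Wdr5 had 32.4 and Ppp5c had the lowest, 12.5. The median was 33.0, beside 22.9 over all genes with a promoter peak.

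The kinase ERK5 and the MEF2 factors are known to switch on Klf2 and Klf4. Of 8 genes of this pathway 5 (62.5%) had a promoter peak, against 30.9% of all protein-coding genes, and each covered a TSS. Mef2a and Mef2d, which encode MEF2 factors, had folds of 34.8 and 27.8. The upstream kinase genes Map3k3, Map2k5 and Map3k2 had 25.6, 20.6 and 14.2. Mapk7, which encodes ERK5, Mef2b and Mef2c had no assigned peak.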

How the data were processed

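KLF13 ChSP and input libraries from HT22 cells, 4 of each, were deposited as 1 annotated peak list. The submitters' processing notes name BWA 0.7.17-r1188, HOMER 4.9.1, ChIPseeker 1.16.1, FastQC 0.11.3 and the build GRCm38, without roles. PePr appears as the caller in the list's name, with settings and library scaling not given in the sources used here. Whether libraries of a group came from separate cultures is not stated in the labels. The fold (linear ratio, ChSP to input) and p-value, identified by column position, are the authors' values for all 8 libraries together. The deposited score was not used. Per the file headers, the authors also annotated each peak with a width, a class, a transcript (UCSC identifier) and a distance to its TSS.

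Peaks were matched to the 10 genes by symbol and to protein-coding genes by gene identifier in a RefSeq gene table on GRCm38.p6. All 10 genes were in it. Percentiles are shares of promoter peaks with a lower fold or a larger p. For gene starts by RefSeq bounds, the strand came from the promoter windows or, for genes without one such as Klf5, from the peak list. The 2853 protein-coding genes with neither were left out, so every gene left out lacked an assigned peak. Motifs were searched on both strands of RefSeq promoter windows, overlaps included. The search was tested on simulated sequences of A and T with motifs planted apart. That test did not cover overlapping copies or GC-rich sequence. All peaks of the 10 genes are described. Other KLF and Sp genes, and genes with a promoter peak in 3 lists (cofactors, ERK5 and MEF2, pluripotency), were named by rule. The genes and lists were chosen with earlier results of these data known, and no list was tested. Alternatives were a 3 kb window, any assigned peak, the smallest p, no widest peaks, RefSeq gene starts, other choices of peak per gene, merged peaks and a longer motif. Software was matplotlib 3.10.9, scipy 1.17.1, numpy 2.4.6 and pandas 2.3.3 under Python 3.11.15.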

Additional observations from a re-analysis of the deposited data

How the results depend on the processing

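No paired analysis was possible because values of single libraries were not given, and for the same reason no library could be left out. Motif counts in the peaks' own sequences were not run, since no genome was used. Taking the promoter peak nearest the TSS or with the smallest p could change no fold or median, since each of the 7 genes had 1 promoter peak. With the 4753 peaks of smallest p, 2 of the 10 genes had a promoter peak, 3 peaks were left, the median fold was 42.4 and the share of all genes was 18.6%; there are fewer peaks by construction. With any assigned peak, Klf12 joined to make 8 genes, the median was 24.4 and the share 33.6%. Without the 5% widest peaks (over 1300 bp), Klf3 left to make 6 genes, the median was 24.4 and the share 29.3%. At 3 kb the share was 31.6% and the count 7. Merging peaks under 1 kb apart left 10 peaks, and 8 peaks lay within 10 kb of the genes' bounds. By RefSeq gene starts the share was 34.5% of the 19047 genes with a known strand, a set that left out only genes without an assigned peak. The count of 7 stood, with Klf12 gained and Klf15 lost. The longer motif GGGGCGGGG was in 4 of 9 genes' windows, against 7 with GGGCGG, and in 11.4% of all windows. Without Klf13, chosen after seeing the data together with the other Klf8 window, the SIN3-binding median was 38.8. Depth and replicate spread are unknown, so the order of neighbouring folds has no error attached.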

Other observations

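Klf2, Klf4 and Klf5 belong to the pluripotency circuit of embryonic stem cells, and 3 of 7 other genes of that circuit (42.9%) had a promoter peak, beside 30.9% of all protein-coding genes. Sox2, which neural progenitors also use, had the highest fold, 26.9, over its TSS. Esrrb, an orphan receptor gene, had 18.5, and Myc had 12.8 in a peak ending at -22 bp from its TSS. Tbx3 had no promoter peak but an exonic peak with a fold of 12.0 at 9.07 kb past its TSS, and Nanog, Pou5f1 and Tfcp2l1 had no assigned peak. Klf17, a KLF gene of germ cells and early embryos outside both groups compared, had a single distal intergenic peak 27.0 kb from its bounds, with a fold of 15.7.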
